A study of Mus musculus with 6 samples.

Results

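Iron uptake, storage, export and heme breakdown were followed through 10 genes, chosen by name, of the 54532 genes with a value in each library. Tfrc, Slc11a2 and Slc11a1 encode importers, Ireb2 and Ncoa4 encode a sensor of cell iron and a receptor that sends ferritin for degradation, Fth1 and Ftl1 encode the ferritin chains, Slc40a1 encodes the exporter, and Hmox1 and Cd163 serve heme. All 10 symbols were found in the files. The cells were immortalised bone marrow-derived macrophages, made with retroviruses that carry v-raf and v-myc from marrow of mice labelled 4-1BBL KO or WT. 4-1BBL is a TNF family ligand encoded by Tnfsf9. There were 3 KO-labelled and 3 WT libraries, all from cells kept for 24 hours with 10 ng/ml of IL-4, and no library without IL-4 is used, so how IL-4 itself moved a gene is not measured. The labels do not say how many animals or separate cultures stand behind a group, so each group could be 1 line, and the spread behind every p-value is that of 3 libraries, possibly only a technical one. The study's stated question is the role of 4-1BBL in anti-inflammatory responses.

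Macrophages take up iron bound to transferrin through the receptor encoded by Tfrc, and recover further iron from ingested red cells by breaking down heme. Iron that is not used is stored in ferritin, a shell of heavy and light chains, or leaves the cell through ferroportin, the product of Slc40a1. When iron is scarce, iron regulatory proteins bind a hairpin in several of these transcripts, the iron-responsive element. Bound downstream of the coding part, as in Tfrc, they protect the transcript from decay. Bound upstream of it, as in the ferritins and ferroportin, they block translation, which transcript levels do not show.

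The hairpins are shown because the side of the coding part on which they lie bears on how iron acts on a transcript. A search of the untranslated regions in GENCODE M21 (GRCm38) used an unpaired C, a stem of 5 base pairs with G-U pairs allowed, and the loop CAGTGN, on the transcribed strand. It found the hairpin 4 times in the 3′ untranslated region of Tfrc and once in the 5′ untranslated regions of Fth1, Ftl1 and Slc40a1. Capitals mark the loop.
Tfrc, chr16:32631221-32631245, plus strand: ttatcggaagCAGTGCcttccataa
Tfrc, chr16:32631600-32631624, plus strand: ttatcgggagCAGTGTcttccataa
Tfrc, chr16:32631665-32631689, plus strand: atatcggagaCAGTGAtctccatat
Tfrc, chr16:32631712-32631736, plus strand: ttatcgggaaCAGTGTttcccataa
Fth1, chr19:9982734-9982758, plus strand: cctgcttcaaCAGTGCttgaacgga
Ftl1, chr7:45459781-45459805, minus strand: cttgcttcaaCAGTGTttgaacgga
Slc40a1, chr1:45925467-45925491, minus strand: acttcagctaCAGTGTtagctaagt
The same search matched 31 of 21901 protein-coding genes (0.142%) in a 5′ untranslated region and 129 (0.589%) in a 3′ untranslated region, whereas the loop letters alone were in 32.3% and 66.5% of genes. The other 6 genes held no match, which says only that these letters in this arrangement are not there. A hairpin of another shape would be missed, so these genes are not shown to lack one. A match is a description of the sequence and not a measurement of binding.

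Depth recovered from the deposited FPKM (fragments per kilobase of exon scaled to the assigned fragments of the library) was 19136299 to 26389529 fragments per KO-labelled library and 20742680 to 22264705 per WT library. Tnfsf9 transcript was present in both groups, at 10.7, 10.7 and 11.4 FPKM in the KO-labelled libraries, against 14.6, 10.4 and 12.05 FPKM in the WT libraries (exact two-sided permutation p = 0.4, where 0.1 is the smallest that 3 against 3 allows). Which exons the deletion takes is not in the labels, so this level checks nothing, and the cells are named by their label, KO-labelled. Of 10 macrophage markers, 9 were at 1 FPKM or more in every library (all but Mertk), with a summed level of 1571 to 1614 FPKM in KO-labelled and 2523 to 2577 FPKM in WT libraries. That sum hides opposite directions: 3 markers were higher in every KO-labelled library (Adgre1, Fcgr1, Mertk), 4 were lower in every one (Csf1r, Cd68, Lyz2, Cd14) and 3 overlapped (Itgam, Spi1, Tyrobp). Adgre1, the F4/80 antigen, averaged 268 ± 6.07 FPKM in KO-labelled and 11.8 ± 0.625 FPKM in WT libraries, and Cd14 averaged 45.8 ± 2.64 FPKM in KO-labelled and 292 ± 5.68 FPKM in WT libraries (SD, n = 3 each). Of 8 erythroid markers 4 were at 0 in every library, globins included, and their sum reached at most 0.267 FPKM in KO-labelled and 0.608 FPKM in WT libraries. The lists of lymphocyte, fibroblast and hepatocyte markers each summed to at most 0.105 FPKM in KO-labelled and 0.413 FPKM in WT libraries. Neutrophil markers summed to 0.710 to 1.26 FPKM in KO-labelled and 0.0675 to 0.141 FPKM in WT libraries, with 3 of 8 at 0 in every library. Osteoclast markers summed to 82.2 to 85.6 FPKM in KO-labelled and 133 to 142 FPKM in WT libraries, and the part of any of these markers in the results was not tested. The groups also differed in the Y-linked Ddx3y, at 10.8 ± 1.13 FPKM in KO-labelled and 0.00309 ± 0.00535 FPKM in WT libraries (SD, n = 3 each), and what comes with that difference cannot be told apart from the label. In bulk RNA, fewer cells of a type and less RNA per cell cannot be told apart either.

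Among the 10 genes, 8 could be tested, and 6 of them passed a Benjamini-Hochberg adjusted p of 0.05 in limma, 3 higher in KO-labelled cells (Tfrc, Slc11a2, Ireb2) and 3 lower (Fth1, Ftl1, Hmox1). Of all 10843 tested genes 60.8% passed, 30.6% higher and 30.2% lower, and 67.4% had groups without overlap, so 6 of 8 called is near what genes at large showed and is no result about these genes as a group. The median absolute log2 fold change was 0.50 over the 8, against 0.32 over all tested genes, and 25.7% of tested genes changed by more than Ftl1, the largest of the 8. The median signed log2 fold change was 0.03 over the 8 and 0.01 over all tested genes.

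**Figure D1:**
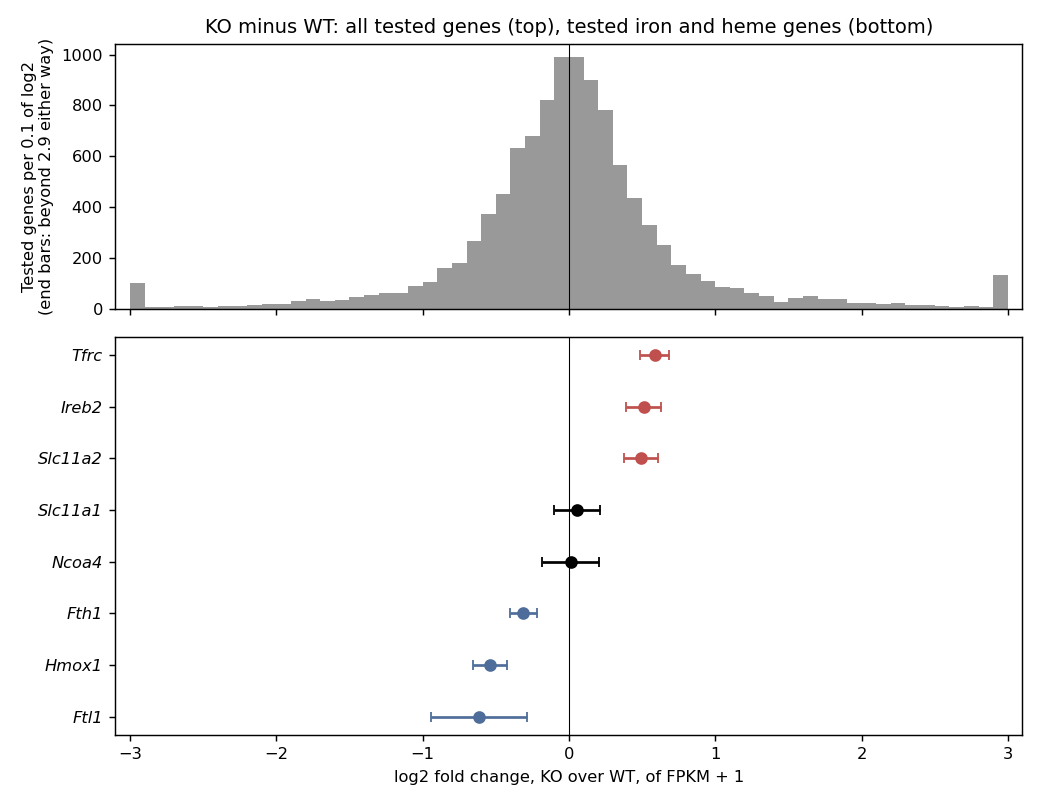
Top, number of tested genes by log2 fold change of FPKM + 1, KO-labelled over WT, with genes beyond the axis gathered in the end bars. Bottom, the log2 fold change and 95% interval (limma) of the 8 tested iron and heme genes, red for higher, blue for lower and black for not passing, which run from 0.59 for Tfrc to -0.62 for Ftl1, within the bulk of all genes.

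The importer genes on the transferrin route were higher in KO-labelled cells. Tfrc, the transferrin receptor (positions on GRCm38; ENSMUSG00000022797, chromosome 16, 32608920 to 32632794, plus strand), had 161, 168 and 171 FPKM in the KO-labelled libraries, against 114, 108 and 111 FPKM in the WT libraries. Every KO-labelled library lay above every WT library, and the 1.5-fold difference was many times the spread within a group. In limma, the log2 fold change of Tfrc on FPKM + 1 was 0.59 ± 0.04 (SE), with a Benjamini-Hochberg adjusted p of 2.40e-05. Slc11a2, also called DMT1, moves ferrous iron out of the endosome after transferrin has released it (ENSMUSG00000023030, chromosome 15, 100387898 to 100425072, minus strand). It had 20.1, 19.8 and 19.3 FPKM in the KO-labelled libraries, against 13.5, 13.4 and 14.3 FPKM in the WT libraries. The groups did not overlap, Slc11a2 was 1.44-fold higher in KO-labelled cells, and its log2 fold change was 0.49 ± 0.05 (SE, limma adjusted p = 0.000118, Benjamini-Hochberg).

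Slc11a1 (ENSMUSG00000026177, chromosome 1, 74375195 to 74386062, plus strand), or NRAMP1, the relative of Slc11a2 that pumps metal ions out of the phagosome of macrophages and so withholds them from ingested microbes, did not pass the test. Its level was 32.0, 27.1 and 29.4 FPKM in the KO-labelled libraries and 28.4, 29.3 and 27.2 FPKM in the WT libraries, with the groups overlapping. The log2 fold change of Slc11a1 was 0.06, with a 95% interval from -0.11 to 0.22 (limma adjusted p = 0.510, Benjamini-Hochberg). That interval lies below the one of Slc11a2, 0.38 to 0.61, although the difference between the genes was not itself tested. Within a library the level of Slc11a1 was 1.59, 1.37 and 1.52 times that of Slc11a2 in the KO-labelled libraries, against 2.11, 2.18 and 1.90 times in the WT libraries, per length of exon.

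**Figure D2:**
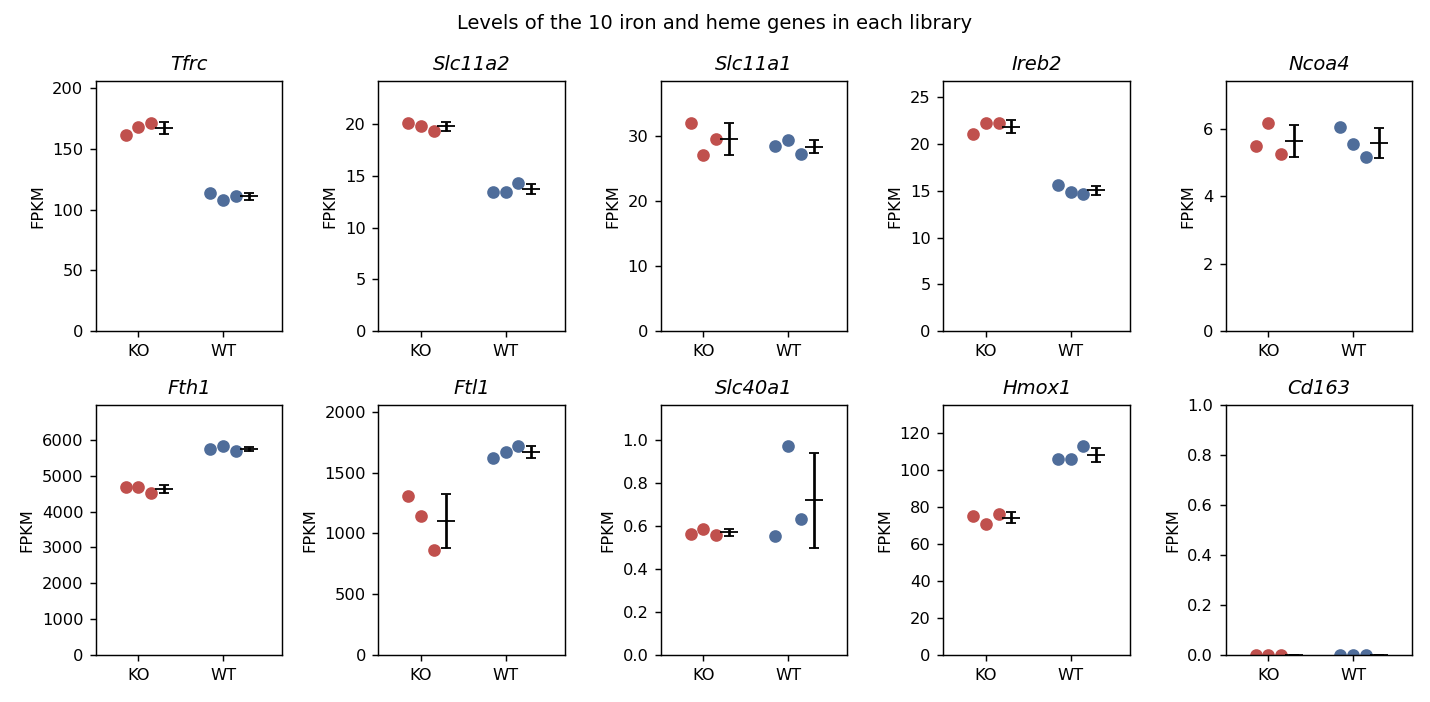
FPKM of each of the 10 genes (vertical axes, linear, starting at 0) in the 3 KO-labelled libraries (KO, red) and the 3 WT libraries (blue), with the mean and SD as black bars. Tfrc, Slc11a2 and Ireb2 stand higher in every KO-labelled library, Fth1, Ftl1 and Hmox1 stand lower in every one, Slc11a1, Ncoa4 and Slc40a1 overlap, and Cd163 is at 0 in all 6.

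The sensor gene Ireb2 was higher and the ferritin receptor gene Ncoa4 was not distinguishable. Ireb2 encodes iron regulatory protein 2, which is degraded when iron is plentiful (ENSMUSG00000032293, chromosome 9, 54863789 to 54912530, plus strand). It had 21.1, 22.3 and 22.2 FPKM in the KO-labelled libraries, against 15.6, 14.9 and 14.6 FPKM in the WT libraries. All KO-labelled libraries were above all WT libraries, 1.45-fold on average, with a log2 fold change of 0.51 ± 0.05 (SE, limma adjusted p = 0.000114, Benjamini-Hochberg). Ncoa4 (ENSMUSG00000056234, chromosome 14, 32159865 to 32179855, plus strand), which carries ferritin to the lysosome so that its iron is released, had 5.49, 6.17 and 5.24 FPKM in the KO-labelled libraries and 6.04, 5.54 and 5.15 FPKM in the WT libraries. The groups overlapped, and the log2 fold change of Ncoa4 was 0.01 with a 95% interval from -0.18 to 0.21 (limma adjusted p = 0.904). Ncoa4 has a processed copy, Gm6768, 99.9% identical to it over 1878 bases and listed at 5.93 ± 0.86 FPKM in KO-labelled and 5.96 ± 1.40 FPKM in WT libraries (SD, n = 3 each), so its level is uncertain, while the sum of the fragments of both gave the same log2 fold change, 0.01.

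Both ferritin genes were lower in KO-labelled cells. Fth1, the heavy chain that oxidises iron for storage (ENSMUSG00000024661, chromosome 19, 9980598 to 9985098, plus strand), had 4701, 4689 and 4519 FPKM in the KO-labelled libraries, against 5750, 5822 and 5693 FPKM in the WT libraries. It ranked 3rd of all genes by mean FPKM in KO-labelled and 2nd in WT cells, and the groups did not overlap. The log2 fold change of Fth1 was -0.31 ± 0.04 (SE, limma adjusted p = 0.000400, Benjamini-Hochberg), a 1.24-fold lower level. The call depended on processing: under quantile normalization the log2 fold change was -0.09 (adjusted p = 0.149), and without a filter on low values it was -0.31 with an adjusted p of 0.266.

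Ftl1, the light chain that helps the iron core to form (ENSMUSG00000050708, chromosome 7, 45457944 to 45459884, minus strand), had 1304, 1139 and 865 FPKM in the KO-labelled libraries, against 1617, 1673 and 1715 FPKM in the WT libraries. The groups did not overlap, but the KO-labelled libraries were spread more widely than the WT ones, with a mean of 1103 ± 222 FPKM in KO-labelled and 1668 ± 49.0 FPKM in WT cells (SD, n = 3 each). The log2 fold change of Ftl1 was -0.62 ± 0.14 (SE, limma adjusted p = 0.00701, Benjamini-Hochberg), a 1.51-fold lower level, and it was -0.45 without KO replicate 3 and -0.75 without KO replicate 1. Together the 2 genes took 1.81%, 1.78% and 1.68% of the recovered depth in the KO-labelled libraries, against 2.21%, 2.24% and 2.20% in the WT libraries.

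Ferritin genes have processed copies in the genome, and how the counting divided fragments between them is not given in the sources used here. Ftl1 has 5 near-identical copies, the largest of which, Ftl1-ps1, is 99.6% identical over 910 bases and is annotated as protein-coding. Ftl1-ps1 was listed at 20.9, 15.9 and 15.3 FPKM in the KO-labelled libraries, against 29.5, 27.9 and 27.8 FPKM in the WT libraries, also without overlap. Adding the fragments of all 5 copies to Ftl1 left the log2 fold change at -0.62. The 1 near-identical copy of Fth1, Gm6977, was at 0 in every library. Exons of the antisense gene Gm10252 cover 26.5% of the exon length of Ftl1, and that gene was listed at no more than 1.85 FPKM in any library. Strandedness is not given, so this low level cannot show whether Ftl1 lost fragments in the shared part. FPKM of Fth1 was divided by the length of all its annotated exons, 3469 bases, while its first annotated transcript has 929, so its level per transcript is understated against genes with fewer annotated exon bases.

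The exporter gene Slc40a1 had a low level (ENSMUSG00000025993, chromosome 1, 45908068 to 45926523, minus strand). It had 0.564, 0.587 and 0.557 FPKM in the KO-labelled libraries, against 0.551, 0.970 and 0.634 FPKM in the WT libraries, from 334 and 414 fragments. The groups overlapped, and WT replicate 2 alone stood higher than the rest. The mean difference of -0.15 FPKM did not pass (exact two-sided permutation p = 0.4, smallest possible 0.1), it was -0.02 FPKM without WT replicate 2, and Slc40a1 was under the mean of 1 FPKM required for the test across genes. Without that filter its log2 fold change was -0.12 (limma adjusted p = 0.441). As for Fth1, the level was divided by all annotated exon bases, 9000, while the first annotated transcript has 3370. If all fragments lay on that transcript, the mean would be 1.52 FPKM in KO-labelled and 1.92 FPKM in WT cells, above the filter.

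Of the 2 heme genes, Hmox1 was expressed and Cd163 was not detected. Hmox1 encodes heme oxygenase 1, the inducible enzyme that opens the heme ring and frees its iron (ENSMUSG00000005413, chromosome 8, 75093621 to 75100589, plus strand). It had 75.2, 70.8 and 76.3 FPKM in the KO-labelled libraries, against 106, 106 and 113 FPKM in the WT libraries. Every KO-labelled library was below every WT library, the level was 1.46-fold lower, and the log2 fold change of Hmox1 was -0.54 ± 0.05 (SE, limma adjusted p = 7.18e-05, Benjamini-Hochberg). Cd163 (ENSMUSG00000008845, chromosome 6, 124304656 to 124330527, plus strand), the macrophage receptor for hemoglobin bound to haptoglobin, was at 0 in all 6 libraries, which allows up to 0.0287 FPKM in the KO-labelled and up to 0.0265 FPKM in the WT library of least depth, at 3 fragments. The floor covers counting error only.

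**Figure D3:**
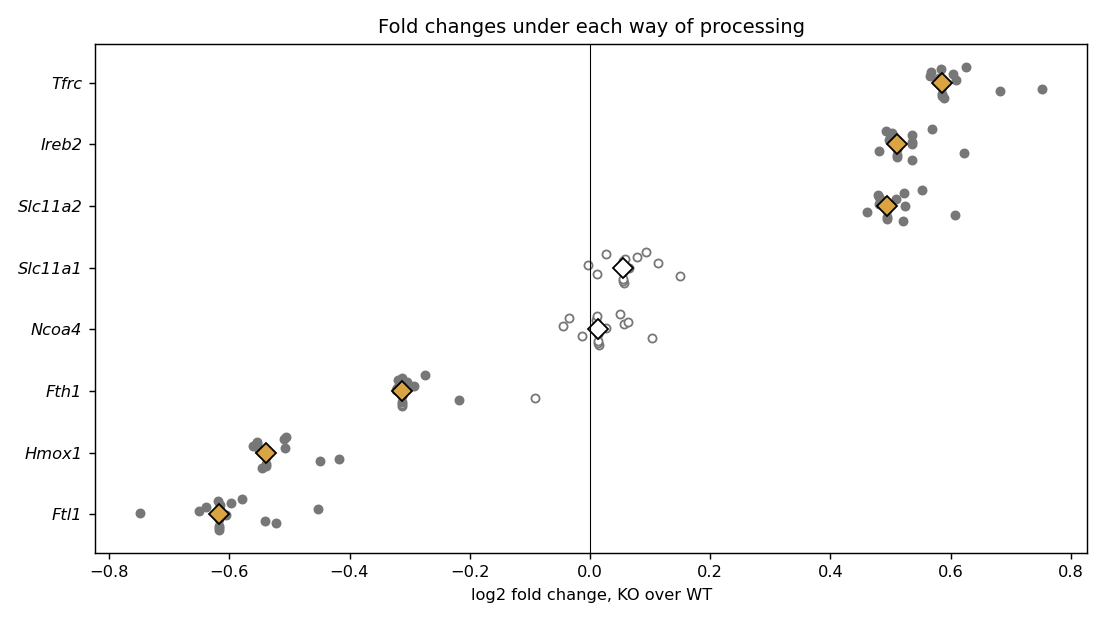
Log2 fold change, KO-labelled over WT (horizontal axis), of the 8 tested genes under the main processing (diamonds) and every alternative tried (circles, 1 per alternative). Filled symbols passed an adjusted p of 0.05. Tfrc, Ireb2 and Slc11a2 stay to the right of 0 and filled, Ftl1 and Hmox1 stay to the left and filled, Fth1 has 1 visible open circle at -0.09 and 1 covered by its diamond at -0.31, and Slc11a1 and Ncoa4 are open throughout.

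Of the 4 genes with the hairpin printed above, Tfrc, with 4 copies in the 3′ region, was higher, while Fth1 and Ftl1, with 1 in the 5′ region, were lower and Slc40a1, also with 1 in the 5′ region, was not tested. With 4 such genes this is a description. In the RefSeq promoter windows of 300 bases (GRCm38.p6), the letters TGACNNNGC of the antioxidant response element, on either strand, were in 1 of the 7 genes with a window, Ncoa4, and in 14% of all genes. Hmox1, Slc40a1 and Slc11a2 were not searched. Sequence outside these windows was not searched either, so the absence of a match does not mean that a gene lacks the element.

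Other genes of iron and heme handling were taken from 6 lists with 85 genes, of which 62 could be tested. Of these, 4 (Lcn2, Hp, Abcg2, Epas1) reached the required mean of 1 FPKM through the KO-labelled libraries alone, so they had to differ. They are given by their values only, with no test, and enter no count except those on how the results depend on the processing. Of the other 58 genes, 12 rose, 23 fell and 23 did not pass. This is 60.3% passing, against 58.6% of all genes that averaged 1 FPKM or more in each group. After rescaling to TPM, 16 rose and 18 fell. Over all 9869 such genes, 2871 rose and 2910 fell, and after rescaling to TPM 3506 rose and 2290 fell. The balance between directions thus moved with the scaling in the lists and over all genes, and fewer list genes rose than fell under both. The median log2 fold change of the 58 was -0.10, against 0.00020 over all such genes.

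In iron uptake and reduction, 3 of 5 genes rose and none of the 5 fell. Lcn2, which encodes lipocalin 2, a protein that binds bacterial siderophores, had 12.8, 12.9 and 13.6 FPKM in the KO-labelled libraries, against 0.482, 0.551 and 0.188 FPKM in the WT libraries. Hfe, the MHC class I-like protein that binds the transferrin receptor, had 20.8, 23.9 and 25.8 FPKM in the KO-labelled libraries, against 4.18, 3.63 and 4.51 FPKM in the WT libraries. The summed neutrophil markers given above were also higher in KO-labelled libraries, and their part in the level of Lcn2 was not tested. The ratio of means was 32.1 for Lcn2. Hfe was 5.73-fold higher with no overlap (limma adjusted p = 2.12e-06). Steap3, the endosomal reductase that readies iron for Slc11a2, rose 1.31-fold, to 9.67 ± 0.861 FPKM in KO-labelled cells against 7.39 ± 0.560 FPKM in WT cells (SD, n = 3 each; limma adjusted p = 0.00867). The other 11 of the 17 listed genes were under the filter and not tested. In 4 of them the groups did not overlap, 3 higher in KO-labelled libraries (Trf, Steap1, Steap2) and 1 lower (Slc22a17), named here after their values were seen. Of all 43689 genes under the filter, 1399 were higher without overlap and 924 lower. Most of the 43689 were at 0 in every library and could not differ. Only 20848 genes were above 0 in any library, and 10843 of those were tested. Of the 11 listed genes only 2 were at 0 in every library, so 4 of 11 cannot be set against the share of the 43689. Steap2 had 5, 4 and 1 fragments in the KO-labelled libraries and 0 in each WT library, so its place rests on 1 fragment in KO replicate 3. Slc22a17, a receptor for lipocalin 2, was at 0 in every KO-labelled library, against 1.01, 0.811 and 0.716 FPKM in the WT libraries. Trf, transferrin itself, had 171 fragments over the KO-labelled libraries and 3 over the WT libraries.

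In cytosolic iron handling and sensing, 2 of 11 tested genes rose and 4 fell. After rescaling to TPM 4 rose and 3 fell, so the balance between directions in this list turned with the scaling. Aco1, the gene of iron regulatory protein 1, had 21.5, 22.9 and 25.2 FPKM in the KO-labelled libraries, against 19.2, 19.8 and 16.0 FPKM in the WT libraries, a 1.26-fold rise (limma adjusted p = 0.0196). Its call was lost without KO replicate 3 (log2 fold change 0.27, adjusted p = 0.0521), against 0.33 with all libraries. Fbxl5, the iron-sensing ubiquitin ligase subunit that marks iron regulatory protein 2 for degradation, fell to 4.94 ± 0.273 FPKM in KO-labelled cells, against 6.23 ± 0.0921 FPKM in WT cells (SD, n = 3 each; limma adjusted p = 0.00547). The iron-sulfur protein genes Cisd1 and Cisd2 parted, Cisd1 falling 1.67-fold and Cisd2 rising 1.48-fold in KO-labelled cells (limma adjusted p of 6.04e-05 and 0.000806).

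Only 2 of 8 genes listed for iron export and hepcidin could be tested, and both fell. With 58.6% of all genes that averaged 1 FPKM or more in each group passing, 2 genes do not speak for iron export as a group. The exporter gene Slc40a1, given above, was not 1 of them. Cp, ceruloplasmin, the copper oxidase that works beside ferroportin, had 3.42, 3.51 and 4.15 FPKM in the KO-labelled libraries, against 8.12, 7.92 and 7.60 FPKM in the WT libraries, 2.13-fold lower (limma adjusted p = 5.20e-05). Slc39a10, a metal transporter, fell 1.59-fold (limma adjusted p = 0.000328). The hepcidin genes Hamp and Hamp2 were at 0 in every library.

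In heme uptake and breakdown, 1 of 8 genes rose and 5 fell. Abcg2, an efflux pump that carries heme-type porphyrins, had 3.23, 3.43 and 3.36 FPKM in the KO-labelled libraries, against 0.121, 0.0710 and 0.0771 FPKM in the WT libraries (a ratio of means of 37.3, not tested as it met the filter through the KO-labelled libraries alone). Hp, haptoglobin, the plasma protein that binds free hemoglobin, was at 2.15, 2.66 and 2.77 FPKM in the KO-labelled libraries and at 0 in all WT libraries, at least 28.0-fold higher against a floor of 3 fragments per library. Lrp1, a receptor for heme bound to hemopexin among other ligands, had 11.7, 10.9 and 10.2 FPKM in the KO-labelled libraries, against 21.3, 21.1 and 20.6 FPKM in the WT libraries (limma adjusted p = 1.64e-05). Slc48a1, the transporter that brings heme out of the phagolysosome, fell 1.28-fold (limma adjusted p = 0.00208). Hmox2, the constitutive heme oxygenase, did not pass, at 21.7 ± 0.939 FPKM in KO-labelled and 21.8 ± 1.85 FPKM in WT cells, nor did Blvrb, a biliverdin reductase, at 20.6 ± 0.581 FPKM in KO-labelled and 21.8 ± 1.14 FPKM in WT cells (SD, n = 3 each; limma adjusted p of 0.994 and 0.259).

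In heme synthesis and mitochondrial iron, 3 of 22 tested genes rose and 8 fell. Alad, the enzyme of the second step of heme synthesis, had 9.72, 9.50 and 10.3 FPKM in the KO-labelled libraries, against 39.1, 42.4 and 35.2 FPKM in the WT libraries, 3.96-fold lower (limma adjusted p = 1.33e-06). Abcb10, a mitochondrial transporter needed for heme synthesis, rose 2.62-fold, to 5.42 ± 0.531 FPKM in KO-labelled cells against 2.07 ± 0.367 FPKM in WT cells (SD, n = 3 each; limma adjusted p = 0.000165).

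**Figure D4:**
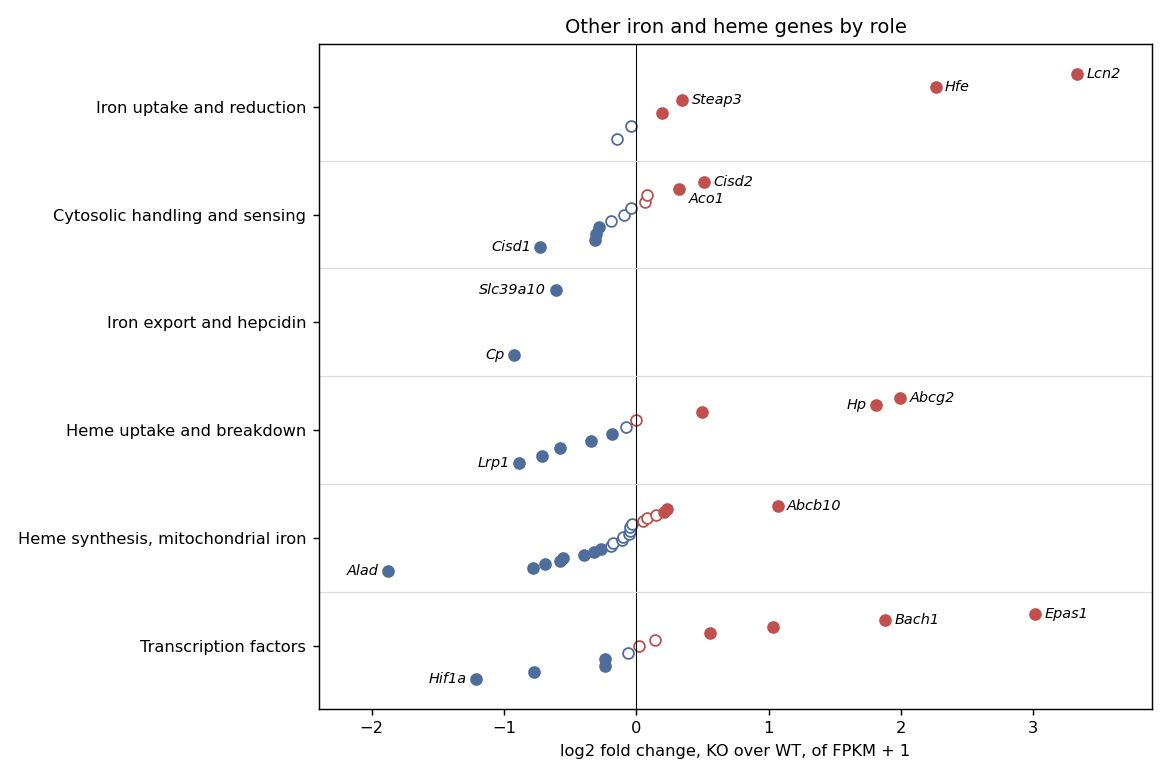
Log2 fold change of FPKM + 1, KO-labelled over WT (horizontal axis), of the 62 genes of 6 iron and heme lists in the fit, 1 point per gene, among them Lcn2, Hp, Abcg2 and Epas1, which met the filter through the KO-labelled libraries alone. Red is higher, blue lower, and filled points passed an adjusted p of 0.05. Those 4 genes are drawn filled but had to differ, so their filling is not a test result. Up to 3 genes per list are named, and outside those 4 the values run from 2.26 for Hfe to -1.88 for Alad.

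Among transcription factors of iron and heme genes, 3 of 10 rose and 4 fell. After rescaling to TPM 4 rose and 2 fell, so this balance turned with the scaling too. Bach1, a heme-sensitive repressor whose known targets include Hmox1 and the ferritin genes, had 23.3, 23.0 and 25.2 FPKM in the KO-labelled libraries, against 5.68, 5.66 and 5.83 FPKM in the WT libraries. It was 4.16-fold higher with no overlap (limma adjusted p = 2.89e-07). Nfe2l2, the gene of NRF2, which activates the same targets, fell to 26.7 ± 0.841 FPKM in KO-labelled cells, against 31.7 ± 2.20 FPKM in WT cells (SD, n = 3 each; limma adjusted p = 0.0119), and did not pass after rescaling to TPM (adjusted p = 0.0848). Hif1a fell 2.38-fold, to 19.2 ± 0.772 FPKM in KO-labelled cells against 45.6 ± 0.388 FPKM in WT cells (SD, n = 3 each; limma adjusted p = 1.04e-06). Epas1, the gene of HIF-2 alpha, was at 7.31, 7.79 and 6.41 FPKM in the KO-labelled libraries, while the 3 WT libraries held 3 fragments together. Spic, which specifies iron-recycling macrophages of the spleen, had 27 fragments over the KO-labelled libraries and 0 over the WT libraries, and was not tested.

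The 5 tested genes whose pattern over the 6 libraries was nearest to that of Ftl1 were Gm16477, Abhd8, Fastk, Bloc1s3 and 1810058I24Rik, at a Euclidean distance of 0.10 to 0.17 between log2 values centred on the WT mean. Each was lowest in KO replicate 3, as Ftl1 was.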

How the data were processed

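Poly(A)-selected RNA of 6 libraries was sequenced. The authors deposited FPKM per Ensembl gene, 1 library per file, with featureCounts 1.5.0-p3, HISAT2 2.0.5 and mm10 named per the submitters' processing notes. Annotation release, strandedness and the handling of multiply placed reads: not given in the sources used here. Symbols and exon lengths came from GENCODE M21, on the same build, for 54495 of 54532 identifiers. The 10 genes and the lists were chosen with earlier results of these data known.

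Values were taken as log2(FPKM + 1), and every gene averaging 1 FPKM or more over the 6 libraries entered a limma fit (3.58.1, R 4.3.3) of KO-labelled minus WT that let the variance follow the mean. Benjamini-Hochberg adjustment covered all tested genes, at 0.05. Log2 fold changes are on that scale, which understates low genes, while folds are ratios of mean FPKM. The limma step was also run on simulated data with far fewer changed genes than here and 1 set spread, so that run does not check the calls in these libraries. Fragments were recovered from FPKM times exon length, and 97.8% to 98.0% of values up to 200 fragments were whole within 0.1. Floors and intervals cover counting error only. Near-identical copies were alignments of at least 95% identity over 80% of the shorter transcript and 150 bases, with BLAST+ 2.17.0+. Named genes are the 10, the 3 largest called changes per list (1 of them is not reported here) and 8 partners or isozymes of the 10. Alternatives changed the pseudocount, filter, scaling, trend, block and libraries, and used voom on fragments. Libraries were compared for duplicates and none was found.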

Additional observations from a re-analysis of the deposited data

How the results depend on the processing

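For the 8 tested iron and heme genes, 117 of 123 recomputed fold changes kept their direction and their side of the threshold. The exceptions were the 2 for Fth1 given with its values, and 4 changes of sign in genes that never passed. Those were Slc11a1 without KO replicate 1 (-0.0026), and Ncoa4 under quantile normalization (-0.014), without KO replicate 2 (-0.045) and without WT replicate 3 (-0.035). Leaving out 1 library at a time gave -0.0026 to 0.11 for Slc11a1 and -0.045 to 0.063 for Ncoa4. Changing only the filter, trend or block leaves a log2 fold change as it was, so only the adjusted p could move there. A gene that never passed counted as kept while its sign held. Both limits apply to the named list genes below as well, so these tallies overstate how much was put to the test. Quantile normalization gives the most abundant gene of each library the same value by construction, and Fth1 is near the top in both groups. The loss without a filter had a cause that was not tested. Over all alternatives the log2 fold change ran from 0.57 to 0.75 for Tfrc, 0.46 to 0.61 for Slc11a2, 0.48 to 0.62 for Ireb2, -0.56 to -0.42 for Hmox1, -0.75 to -0.45 for Ftl1 and -0.32 to -0.09 for Fth1. The count of called genes was 5 or 6 of the 10 under every alternative, and that over the 6 lists, the 4 genes that met the filter through 1 group included, 33 to 43.

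Among the named list genes, 315 of 324 values held, with Lcn2, Hp, Abcg2 and Epas1 included. These met the filter through the KO-labelled libraries alone and had to differ, so their share of the total carries no weight. Hmox2 changed sign under quantile normalization (-0.026) and with voom (-0.0033), ran from -0.040 to 0.067 when 1 library at a time was left out, and Blvrb changed sign after rescaling to TPM (0.015). Aco1 and Nfe2l2 lost their calls as given above. Same-numbered libraries did not deviate together (correlation -0.03, 0.05 and -0.03), so the numbers do not pair the libraries. With the replicate block, 6 of the 10 genes still passed and 6194 genes passed in all, against 6594. Rescaling to TPM over protein-coding genes, the copies of Ncoa4 and the counts without genes that met the filter through 1 group were added after the data had been seen.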

Other observations

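Within a library, and per length of exon, storage genes were set against the uptake receptor gene. The level of Fth1 was 29.1, 27.9 and 26.3 times that of Tfrc in the KO-labelled libraries, against 50.5, 53.9 and 51.4 times in the WT libraries. The level of Ftl1 was 8.08, 6.79 and 5.04 times that of Tfrc in the KO-labelled libraries, against 14.2, 15.5 and 15.5 times in the WT libraries. The heavy chain to light chain ratio, Fth1 over Ftl1, was 3.60, 4.12 and 5.22 in the KO-labelled libraries, against 3.56, 3.48 and 3.32 in the WT libraries, and KO replicate 1 lay close to WT replicate 1. These pairs were chosen after the values were seen, so no test is given.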
